A study of Mus musculus with 12 samples.

Results

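The small leucine-rich proteoglycans of the heart and the genes that mark cardiac fibroblasts were followed through 12 mouse heart RNA-seq libraries. The set holds 10 genes of the 27504 in the deposited count matrix, taken by symbol: Bgn, Dcn, Lum, Fmod, Prelp, Ogn, Vcan, Pdgfra, Tcf21 and Pdgfrl. All 10 had enough counts to be tested, among 16723 tested genes. The hearts came from wild type C57BL/6 mice at postnatal day 45. In the AngII arm, cardiac hypertrophy had been induced with angiotensin II, a hormone that raises blood pressure and promotes growth of heart muscle, whereas sham animals were operated on as controls. The sources used here state neither the dose and length of angiotensin II exposure nor the sex of the mice. Both arms were divided into vehicle, 5 mg/kg/day and 50 mg/kg/day of gastrodin, the main phenolic glucoside of the orchid Gastrodia elata, given into the stomach for 7 days. Each of the 6 groups had 2 libraries, and a library is called by its group and its number in the series (1 to 12). Nothing in the labels ties a library to its own animal, so the p-values cover the spread between libraries, which may be technical.

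Small leucine-rich proteoglycans are secreted proteins with a curved leucine-rich core that bind collagen fibrils, and several of them also hold growth factors such as TGF-beta in the matrix. In the heart they are made mainly by fibroblasts, the cells that build the interstitial matrix. Tcf21, a basic helix-loop-helix transcription factor, and Pdgfra, a receptor tyrosine kinase for platelet-derived growth factors, are widely used to mark these cells. In whole-heart RNA, fewer cells of a type and less RNA per cell cannot be told apart.

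The libraries held 63.5 to 78.6 M counts, of which mitochondrially encoded genes took 63.1 to 74.5%. Nuclear genes that share most of their sequence with the mitochondrial genome took a further 15.9 to 19.5%. Ribosomal RNA genes took 10.8% in sham 50 mg number 12, 0.957% in sham 5 mg number 10 and at most 0.183% in the others. All other genes were left with 4.49 to 15.2 M counts per library, or 6.34 to 10.4% in sham and 7.49 to 20.3% in AngII libraries. The 10 genes together took 0.0630 to 0.121% of those remaining counts in AngII libraries, 0.0974 to 0.159% in sham vehicle and 5 mg libraries, and 0.269 to 0.277% in the sham 50 mg libraries. Heart muscle markers were abundant throughout: 8 cardiomyocyte genes summed to 4579 to 8494 CPM in AngII and 3133 to 5646 CPM in sham libraries. CPM here are counts scaled to a common library size after TMM, which corrects for the share that a few abundant genes take.

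Bgn and Ogn are shown by the 250 bases upstream of their RefSeq starts. They were chosen because, on TMM-scaled CPM, the AngII and sham libraries separated completely for Bgn and overlapped for Ogn (values below). Both are on GRCm38, 5′ to 3′ on the strand of the gene, which is the plus strand for both; the first is chrX:73483351-73483600 and the second is chr13:49607765-49608014. Capitals mark matches, on either strand, to 5 short motifs. TATAAA is the core of the TATA box. CAGCTG is an E-box, the kind of site that basic helix-loop-helix factors such as Tcf21 bind. TGANTCA is the usual site of AP-1 factors. CATTCC is that of TEAD factors and GGGCGG is the core of the site of SP1.
Bgn: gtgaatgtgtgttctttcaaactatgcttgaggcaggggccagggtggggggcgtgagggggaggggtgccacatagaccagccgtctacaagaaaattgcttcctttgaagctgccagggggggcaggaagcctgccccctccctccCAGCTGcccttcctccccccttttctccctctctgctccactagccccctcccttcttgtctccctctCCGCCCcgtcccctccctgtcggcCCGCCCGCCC
Ogn: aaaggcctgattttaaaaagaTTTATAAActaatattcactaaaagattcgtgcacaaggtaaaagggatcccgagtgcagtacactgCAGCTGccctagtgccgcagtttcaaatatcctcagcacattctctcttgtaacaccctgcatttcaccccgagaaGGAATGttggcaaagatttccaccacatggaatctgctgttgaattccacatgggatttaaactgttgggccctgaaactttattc
The Bgn window held CAGCTG and 3 matches to GGGCGG, 2 of which overlap in the last run of capitals. The Ogn window held TATAAA on both strands, in overlapping copies, and also CAGCTG and CATTCC. Over 32851 RefSeq windows of the same length, TATAAA was found in 12.4%, CAGCTG in 13%, TGANTCA in 6.75%, CATTCC in 12.6% and GGGCGG in 32.7%. Of the 7 genes of the set in that table, CAGCTG was found only in these 2, GGGCGG in Bgn and Vcan, and TGANTCA in none. A match describes these letters and is no evidence that a factor binds there.

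In the authors' TPM values, Bgn was the most abundant of the set. Its mean was 53.3 over the 12 libraries, followed by Dcn at 26.0, Tcf21 at 4.50, Ogn at 3.21, Lum at 2.38, Prelp at 1.49 and Pdgfra at 1.31 TPM. This order depends on the lengths used for TPM. In AngII libraries Dcn had more counts than Bgn (17096 and 15346) over fewer annotated exon bases (5838 and 6099). Vcan at 0.159 and Pdgfrl at 0.138 TPM were lowest, and Fmod is not listed in the TPM files. Bgn and Dcn held the first and second place in each of the 6 groups. Tcf21 held the third place in the 3 sham groups and in AngII vehicle, whereas Ogn held it in the AngII 5 mg and 50 mg groups.

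Averaged over the 3 gastrodin doses, 5 of the 10 genes were lower in AngII than in sham hearts: the proteoglycan genes Bgn, Dcn, Lum and Prelp and the transcription factor gene Tcf21. None was higher. The same edgeR quasi-likelihood test called 20.9% of all tested genes at an adjusted p under 0.05, 7.53% as lower and 13.4% as higher. The median log2 fold change was -0.90 over the 10 genes and 0.10 over all tested genes. The calls were not made without the 50 mg groups. With both left out, an alternative added after seeing the data, edgeR called 0 of the 9 genes still tested and 0.823% of all genes. In that fit the values of the 5 genes ran from -0.98 for Bgn (edgeR adjusted p = 0.0810) to -0.50 for Prelp (edgeR adjusted p = 0.279). The summed markers of endothelial cells also separated the arms, at 97.7 to 211 CPM in AngII and 74.8 to 94.9 CPM in sham libraries, and their part in the result was not tested.

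**Figure D1:**
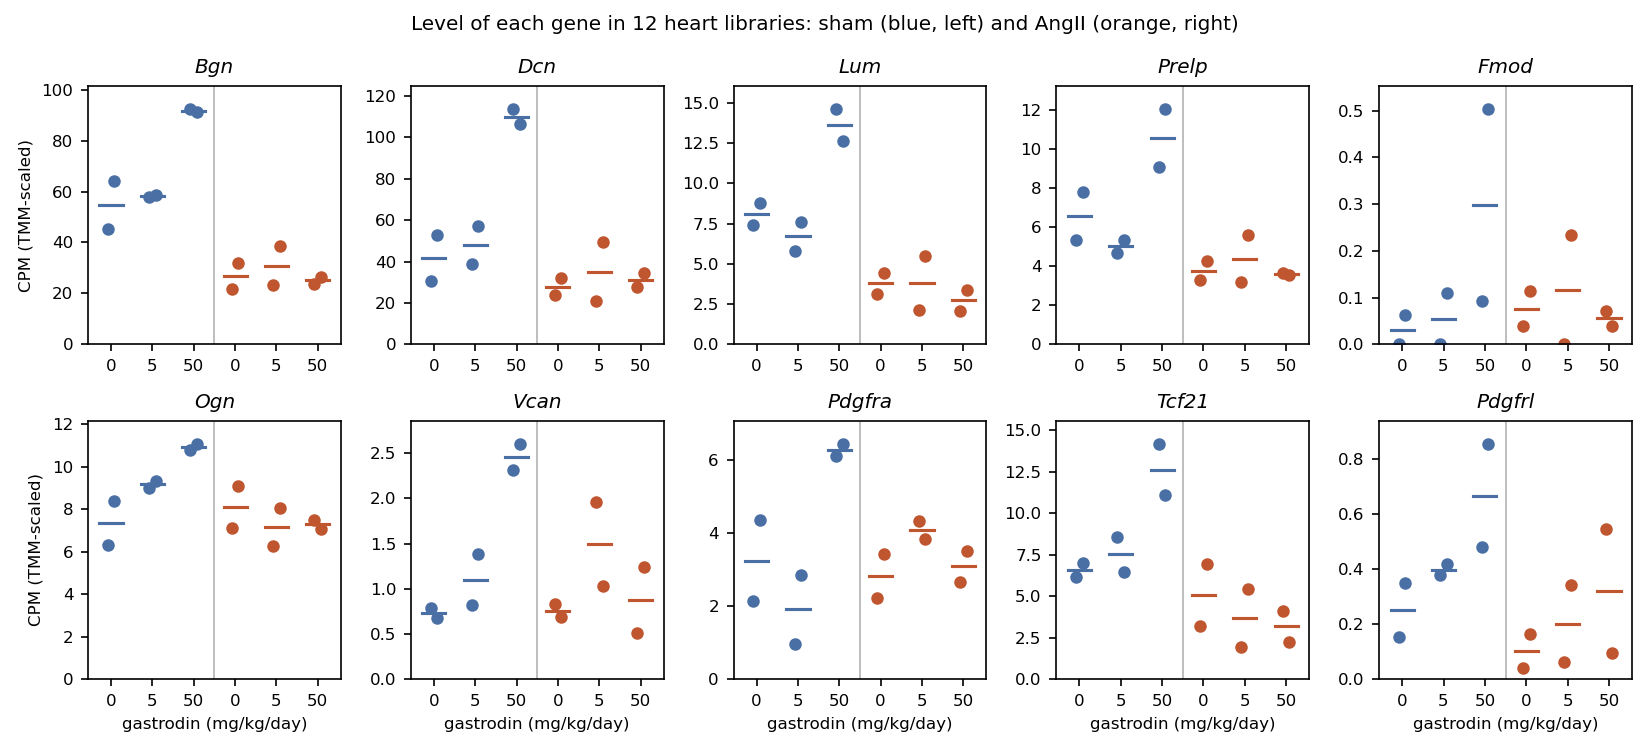
TMM-scaled CPM of the 10 genes (linear axis from 0, a separate range for each gene) against gastrodin dose. Each point is 1 library and each bar the mean of 2; blue points are sham and orange points AngII. For Bgn and Lum all 6 AngII points lie below all 6 sham points, and for 8 genes both sham 50 mg points lie above the other 10 libraries.

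Bgn (ENSMUSG00000031375, chrX:73483602-73495933) encodes biglycan, which carries chondroitin or dermatan sulfate chains. Its level was 45.1 and 64.2 CPM in sham vehicle, 58.0 and 58.6 CPM in sham 5 mg, and 92.2 and 91.1 CPM in sham 50 mg. In the AngII arm it was 21.7 and 31.8 CPM with vehicle, 23.4 and 38.4 CPM with 5 mg, and 23.8 and 26.4 CPM with 50 mg. On TMM-scaled CPM every AngII library was below every sham library, a separation in this direction that 2.92% of all tested genes showed. In the authors' TPM values the arms overlapped, at 25.9 to 56.1 in AngII and 36.4 to 110 in sham libraries. The averaged log2 fold change was -1.27 ± 0.19 (SE; edgeR adjusted p = 0.00153), a level 2.41-fold lower in AngII.

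Lum (ENSMUSG00000036446, chr10:97565128-97572703) encodes lumican, a keratan sulfate proteoglycan that regulates the width and spacing of collagen fibrils. It was at 7.41 and 8.77 CPM in sham vehicle, 5.80 and 7.59 CPM in sham 5 mg and 14.6 and 12.7 CPM in sham 50 mg. The AngII libraries held 3.14 and 4.42 CPM with vehicle, 2.11 and 5.51 CPM with 5 mg, and 2.08 and 3.40 CPM with 50 mg. Here too the arms did not overlap on TMM-scaled CPM, although AngII 5 mg number 4 came close to sham 5 mg number 9. In TPM they overlapped, at 0.762 to 2.30 in AngII and 1.43 to 5.18 in sham libraries. The averaged log2 fold change was -1.41 ± 0.25 (SE; edgeR adjusted p = 0.00319).

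Dcn (ENSMUSG00000019929, chr10:97479609-97518143), next to Lum on the chromosome, encodes decorin, the relative of biglycan that decorates collagen I fibrils. Its 6 sham libraries ran from 30.7 to 114 CPM with a median of 55.2, and its 6 AngII libraries from 21.0 to 49.2 CPM with a median of 30.0. The arms overlapped, because sham vehicle number 7 (30.7 CPM) and sham 5 mg number 9 (38.6 CPM) were below the highest AngII library, number 4 at 5 mg (49.2 CPM). The averaged log2 fold change was -0.95 ± 0.24 (SE; edgeR adjusted p = 0.0151). Without sham vehicle number 8 the adjusted p was 0.0518, so that Dcn no longer passed.

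Prelp (ENSMUSG00000041577, chr1:133910304-133921414) encodes a leucine-rich repeat protein that binds collagen and, through its basic end, heparan sulfate. Its sham libraries ran from 4.70 to 12.03 CPM (median 6.56) and its AngII libraries from 3.19 to 5.58 CPM (median 3.60). The highest AngII library overlapped 3 of the sham libraries. The averaged log2 fold change was -0.85 ± 0.20 (SE; edgeR adjusted p = 0.0116).

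Tcf21 (ENSMUSG00000045680, chr10:22817281-22820174) is needed for cardiac fibroblasts to form in the embryo. It was at 6.15 and 7.00 CPM in sham vehicle, 8.57 and 6.45 CPM in sham 5 mg, and 14.1 and 11.1 CPM in sham 50 mg. In the AngII arm it was at 3.20 and 6.95 CPM with vehicle, 1.96 and 5.42 CPM with 5 mg and 4.12 and 2.26 CPM with 50 mg. AngII vehicle number 2 lay between the 2 sham vehicle libraries, and the other 5 AngII libraries were below all sham libraries. The averaged log2 fold change was -1.13 ± 0.28 (SE; edgeR adjusted p = 0.0156).

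The other 5 genes did not pass. Ogn (ENSMUSG00000021390, chr13:49608046-49624501), which encodes osteoglycin, also called mimecan, was at 6.31 to 11.05 CPM in sham and 6.26 to 9.11 CPM in AngII libraries. Its averaged log2 fold change was -0.27 ± 0.16 (SE; 95% interval -0.62 to 0.08). For Pdgfra (ENSMUSG00000029231, chr5:75152292-75198215) the sham libraries ran from 0.975 to 6.44 CPM and the AngII libraries from 2.22 to 4.35 CPM, inside the sham range, with a difference of -0.05 ± 0.27 (SE; 95% interval -0.64 to 0.55) on the log2 scale. Vcan (ENSMUSG00000021614, chr13:89655312-89742509), which encodes versican, the large hyaluronan-binding chondroitin sulfate proteoglycan of provisional matrix, ran from 0.675 to 2.60 CPM in sham and 0.515 to 1.96 CPM in AngII libraries. Its difference was -0.33 ± 0.31 (SE; 95% interval -0.996 to 0.34).

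Fmod and Pdgfrl were close to the limit of detection. Fmod (ENSMUSG00000041559, chr1:134037254-134048277), which encodes fibromodulin, the relative of lumican, had 0 to 13 counts in AngII libraries, and 36 counts in sham 50 mg number 12 against 0 to 6 in the other sham libraries. Its log2 fold change of -0.08 had an SE of 1.48. Pdgfrl (ENSMUSG00000031595, chr8:40926212-40990785), which encodes a secreted protein resembling the outer part of a PDGF receptor, had 4 to 38 counts in AngII and 8 to 61 in sham libraries. Its log2 fold change was -1.14 ± 0.69 (SE; 95% interval -2.62 to 0.35). For these 2 genes a change of the size seen for Bgn was not detectable at this depth.

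Of the 10 genes, only Pdgfra shares exon bases with other counted genes in GENCODE M21: 4.55% with Gm42802, 1.66% with Gm42803 and 0.299% with Mir7025. These 3 genes had few counts in total (5, 27 and 11 over the 12 libraries).

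**Figure D2:**
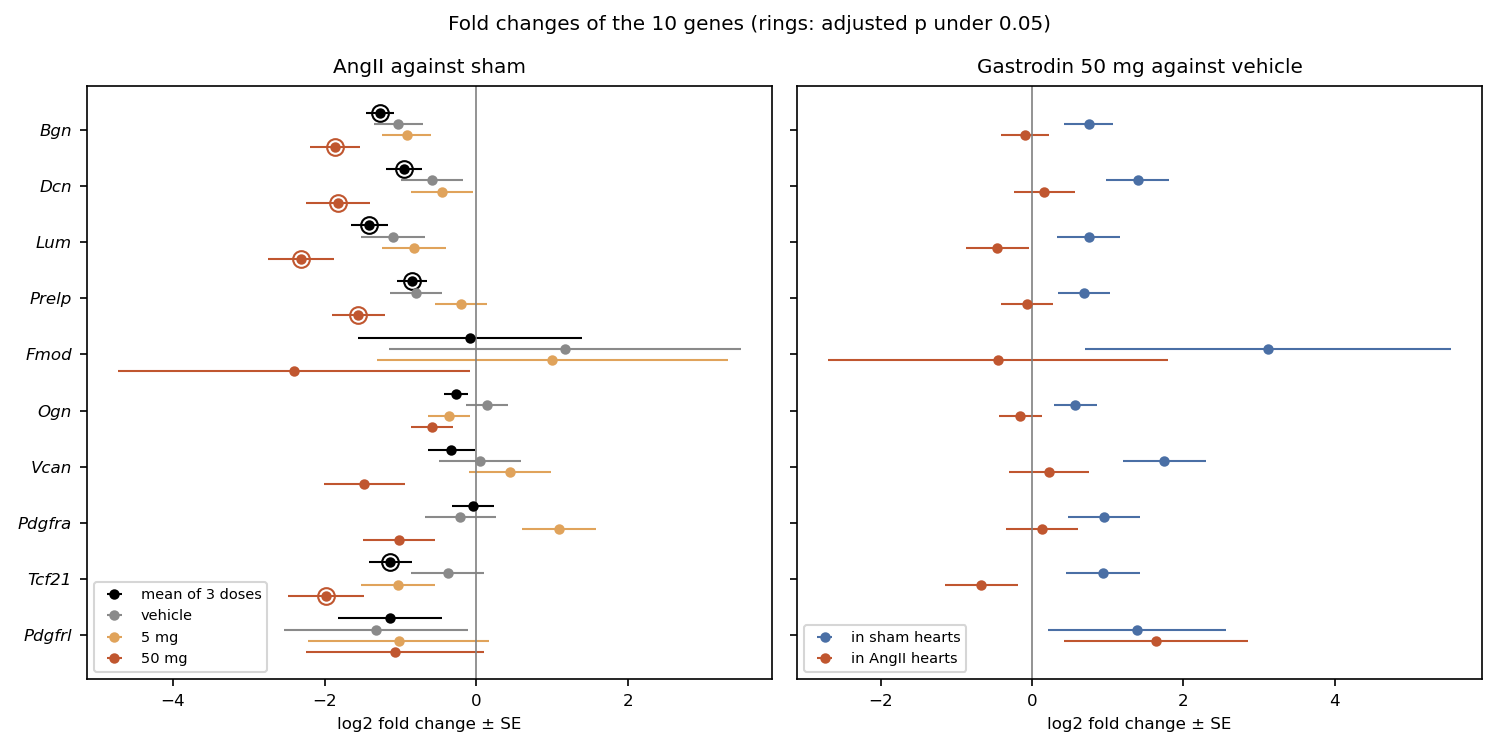
Log2 fold changes ± SE of the 10 genes from edgeR for AngII against sham (left; mean of 3 doses, vehicle, 5 mg, 50 mg) and for gastrodin 50 mg against vehicle within each arm (right). Ringed points passed an adjusted p of 0.05: 5 genes in the mean of 3 doses and 5 at 50 mg on the left, and none on the right.

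Dose by dose, the median log2 fold change of the 10 genes between the arms was -0.48 in vehicle, -0.41 in 5 mg and -1.69 in 50 mg hearts; whether doses differed was tested by the interactions given further on, of which none passed. In vehicle hearts 0 of the 10 genes passed edgeR's adjusted threshold, against 0.0598% of all tested genes. An unadjusted p under 0.05 was reached by 3 of the 10, against 2752 of all 16723 tested genes. DESeq2 called 1 (Bgn) and limma-voom none, though the share of all genes that these called is not given here. Bgn, Lum and Prelp were lower in both AngII vehicle libraries than in both sham vehicle libraries, and 24.3% of all genes were so too. The log2 fold changes were -1.03 ± 0.32 (SE; edgeR adjusted p = 0.184) for Bgn, -1.10 ± 0.42 (SE; edgeR adjusted p = 0.241) for Lum and -0.80 ± 0.34 (SE; edgeR adjusted p = 0.275) for Prelp.

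At 5 mg, 0 of the 10 passed in edgeR, against 0% of all tested genes, and neither DESeq2 nor limma-voom called any. An unadjusted p under 0.05 was reached by 2 of the 10, against 2004 of all 16723 tested genes. Bgn, Lum, Ogn, Tcf21 and Pdgfrl were lower in both AngII libraries, which held for 16.8% of all genes. Pdgfra went the other way. It was at 4.35 and 3.83 CPM in AngII 5 mg and at 0.975 and 2.85 CPM in sham 5 mg, a log2 fold change of 1.09 ± 0.48 (SE; edgeR adjusted p = 0.401), and 21.8% of all genes were higher in both AngII libraries. Without AngII 5 mg number 4, which had the highest Bgn, Dcn, Lum and Prelp of the AngII arm, Bgn, Lum and Tcf21 passed at this dose, and 6.52% of all genes did.

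At 50 mg the same 5 genes as in the average passed, all lower in AngII, against 5.42% of all tested genes called and 1.38% called lower. Lum had the largest of these differences, at -2.31 ± 0.44 (SE; edgeR adjusted p = 0.0139), or 4.96-fold lower in AngII. Tcf21 followed at -1.99 ± 0.50 (SE; edgeR adjusted p = 0.0384), Bgn at -1.87 ± 0.33 (SE; edgeR adjusted p = 0.0107), Dcn at -1.82 ± 0.42 (SE; edgeR adjusted p = 0.0280) and Prelp at -1.55 ± 0.35 (SE; edgeR adjusted p = 0.0256). Both AngII libraries were below both sham libraries for 9 of the 10 genes, Pdgfrl being the exception; 28.4% of all genes were so. Every one of the 4 libraries mattered to the calls. With AngII 50 mg number 5 or 6 or sham 50 mg number 11 or 12 left out, few or none of the 10 genes passed in edgeR. Calls over all genes fell as well, to 2.49% without number 5, 1.02% without number 6, 1.11% without number 11 and 0.276% without number 12. The median over the genes stayed between -1.75 and -1.36 in those 4 fits.

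Within the sham arm, all 10 genes were higher in both gastrodin 50 mg libraries than in both vehicle libraries, as were 21.9% of all tested genes. None passed the adjusted threshold in edgeR, which 0.149% of all genes did. Dcn was at 114 and 106 CPM with 50 mg against 30.7 and 52.9 CPM with vehicle, a log2 fold change of 1.39 ± 0.41 (SE; edgeR adjusted p = 0.316). Vcan was at 2.32 and 2.60 CPM with 50 mg against 0.791 and 0.675 CPM with vehicle, a log2 fold change of 1.75 ± 0.55 (SE; edgeR adjusted p = 0.332). Bgn, at 0.75 ± 0.32 (SE), was the third gene with an unadjusted p under 0.05. Over all 16723 tested genes, 1542 had an unadjusted p under 0.05. DESeq2 called 1 gene, Dcn, as did edgeR with no filter on low counts, and limma-voom called none. The share of all genes called in those fits is not given here.

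For 8 of the 10 genes both sham 50 mg libraries also stood above all 10 other libraries, which 6.22% of all tested genes did. The exceptions were Fmod and Pdgfrl. This count was made after the values were seen. It involves 1 group only, and the sham 50 mg libraries are also those against which AngII 50 mg was compared, so the 2 comparisons share them. For Pdgfra the sham 50 mg libraries held 6.12 and 6.44 CPM against 2.14 and 4.36 CPM with vehicle, and for Ogn 10.8 and 11.05 CPM against 6.31 and 8.37 CPM. The median log2 fold change of the 10 genes, 50 mg against vehicle in sham, was 0.94, against 0.00 for all tested genes. Without number 12, the library with 10.8% ribosomal RNA, it was 0.91 and all 10 were still positive. Sums of 4 other marker lists set the same 2 libraries apart from all 10 others. Summed macrophage markers were higher, at 113 to 142 CPM against 34.2 to 75.6 CPM in sham vehicle and 5 mg and 25.0 to 93.3 CPM in AngII libraries. Summed cardiomyocyte markers were lower, at 3133 to 3662 CPM against 4200 to 8494 CPM, as were skeletal muscle markers, at 374 to 464 CPM against 494 to 1376 CPM, and Schwann cell markers, at 1.93 to 3.22 CPM against 4.61 to 10.4 CPM. The skeletal muscle sum rested on Acta1 and Ckm, with means of 572 and 311 CPM in the sham arm. Tnnt3 and Mylpf of that list averaged 0.17 and 0.18 CPM there, so the sum is no separate sign of skeletal muscle. Their part in the result was not tested.

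The lower dose did not set the sham hearts apart in this way. Against vehicle, 0 of the 10 genes passed in sham 5 mg (edgeR, DESeq2 and limma-voom; 0.0179% of all genes in edgeR). None had an unadjusted p under 0.05, against 689 of all 16723 tested genes. Ogn, Vcan and Pdgfrl were higher in both 5 mg libraries, which 14% of all genes were. The Bgn difference was 0.09, with a 95% interval from -0.60 to 0.78 on the log2 scale.

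In AngII hearts no effect of gastrodin on these genes was called at either dose. At 5 mg 0 of 10 passed (0.00598% of all genes did) and at 50 mg 0 of 10 passed (0.012% of all genes did), with no unadjusted p under 0.05 and no call by DESeq2 or limma-voom. Over all 16723 tested genes, 291 at 5 mg and 315 at 50 mg had an unadjusted p under 0.05. At 5 mg Pdgfra and Vcan were higher in both treated libraries than in both vehicle libraries, which 11.5% of all genes were; Vcan was at 1.96 and 1.03 CPM against 0.829 and 0.683 CPM, a log2 fold change of 0.98 ± 0.54 (SE). At 50 mg all 10 genes overlapped between treated and vehicle libraries, while 15% of all genes were higher and 14.3% lower in both treated libraries. The Bgn difference at 50 mg was -0.09 (95% interval -0.78 to 0.60) and the Dcn difference 0.16 (95% interval -0.72 to 1.03).

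Whether the effect of gastrodin differed between the arms was tested by the interaction. At 50 mg 9 of the 10 interaction terms were negative, with a median of -1.03 on the log2 scale, against -0.025 over all tested genes. All 10 terms use the same sham 50 mg libraries, which were high for most of the set, so they do not count as separate results. A negative term means that the fold change with gastrodin was lower in AngII than in sham; that fold change was itself below 0 for 6 of the 10 genes in AngII and above 0 for all 10 in sham. None passed in edgeR, against 0.0299% of all genes. An unadjusted p under 0.05 was reached by 1 of the 10, against 1159 of all 16723 tested genes: Tcf21, at -1.61 ± 0.69 (SE; edgeR adjusted p = 0.702). The Dcn term was -1.24 ± 0.57 (SE; edgeR adjusted p = 0.723). At 5 mg 0 of 10 passed, against 0.00598% of all genes, and 0 had an unadjusted p under 0.05, against 514 of all 16723 tested genes. DESeq2 and limma-voom called none at either dose.

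The genes were also set against one another inside each library, where no scaling enters. Ogn was taken as the reference after its values were seen, for its narrow interval between the arms. The log2 ratio of Bgn to Ogn counts was 1.61 to 2.26 in the 6 AngII libraries and 2.65 to 3.10 in the 6 sham libraries, with means of 1.86 ± 0.23 and 2.88 ± 0.18 (SD, n = 6 each). No AngII library reached a sham library, and of 12556 genes with counts in every library 1.02% were lower relative to Ogn in all AngII libraries. Both genes were picked with their values in view, so the ratio restates their fold changes without a scaling and is a description.

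**Figure D3:**
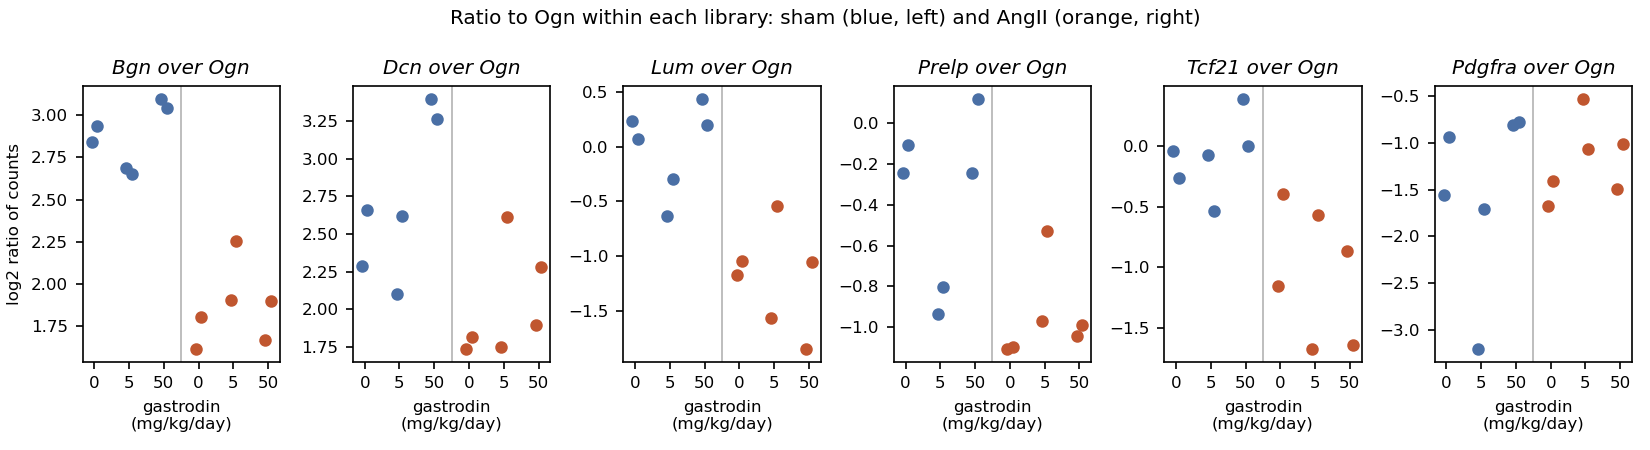
Log2 ratio of the counts of 6 genes to the Ogn counts of the same library, against gastrodin dose; each point is 1 library, blue for sham and orange for AngII. The Bgn ratio is 1.61 to 2.26 in AngII and 2.65 to 3.10 in sham libraries, while the ratios of the other 5 genes plotted overlap between arms.

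The remaining ratios overlapped between the arms. The Lum to Ogn ratio was -1.21 ± 0.45 in AngII and 0.00 ± 0.39 in sham libraries (SD, n = 6 each), and overlapped through AngII 5 mg number 4 and sham 5 mg number 9. For Tcf21 to Ogn the means were -1.05 ± 0.54 and -0.08 ± 0.31, and for Dcn to Ogn 2.01 ± 0.36 and 2.72 ± 0.52 (SD, n = 6 each). For Pdgfra to Ogn they were -1.20 ± 0.42 and -1.50 ± 0.92 (SD, n = 6 each).

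The direction of the genes near 0 depended on the scaling. The log2(TPM + 1) scale keeps the authors' scaling by all listed transcripts. On it Ogn was at 0.25, Pdgfra at 0.26 and Vcan at 0.04 in AngII against sham. Of the 9 genes listed, 0 passed. Fold changes on that scale understate the change of low genes. The abundant genes Bgn and Dcn also had smaller values there, at -0.67 and -0.36, against -1.27 and -0.95 on TMM-scaled counts. Why they were smaller was not tested. On log2(TPM + 1) the median of all genes was 0.22. Limma called 1227 genes higher and 26 lower there, against 2241 higher and 1260 lower on TMM-scaled counts. With the share of counts in all other genes added to the fit, an alternative chosen after seeing the data, 1 of the 10 passed: Bgn, at -1.13 (edgeR adjusted p = 0.0175). That fit called 282 genes higher and 54 lower. Bgn, Dcn, Lum, Prelp, Tcf21 and Pdgfrl had negative values on all 3 scales.

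**Figure D4:**
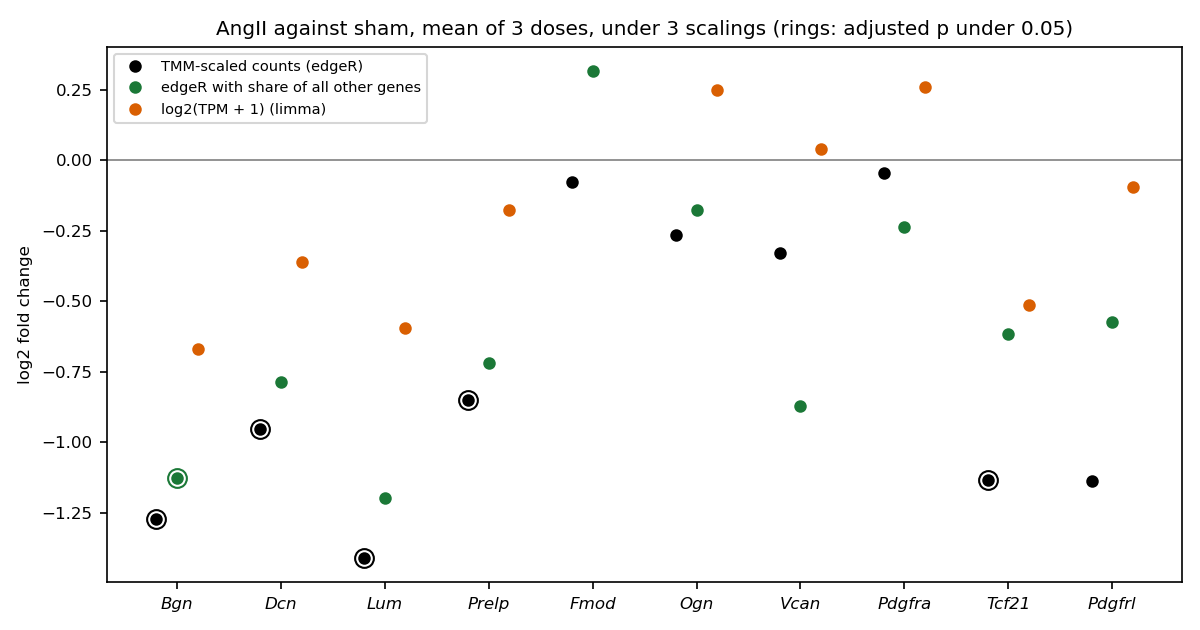
Log2 fold change of AngII against sham (mean of 3 doses) for each gene under TMM-scaled counts (black), the same with the share of all other genes as a covariate (green) and log2(TPM + 1) (orange, not listed for Fmod); rings mark an adjusted p under 0.05. The 5 genes ringed in black have smaller values on the other scales, and Ogn, Vcan and Pdgfra lie above 0 on log2(TPM + 1).

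The 10 genes did not vary as a single unit. Over the 12 libraries Pearson's r of log2 CPM between pairs ran from 0.135 (Tcf21 and Pdgfra) to 0.955 (Bgn and Lum). Bgn, Dcn, Lum and Prelp correlated with each other at 0.891 to 0.955, whereas Bgn and Pdgfra correlated at 0.279. The libraries share the same arms, doses and scaling, so these values are descriptions. The mean profile of the 10 genes was highest in sham 50 mg, at 0.99 and 1.29 above its average on the log2 scale, and lowest in AngII 5 mg number 3 (-0.79) and AngII vehicle number 1 (-0.76). AngII 5 mg number 4, at 0.24, was the only AngII library above the average.

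The tested genes outside the set whose profile was most like this mean were Rab8b (r = 0.963), Islr (0.958), Rpl3 (0.957), Atxn1l (0.957), Pnp (0.957), App (0.956), 2810025M15Rik (0.955) and Gm14414 (0.951), all over 12 libraries. Of these, Islr is on the list of cardiac fibroblast markers below. Among the listed genes, Mmp2 (0.939), Ddr2 (0.932) and Dpt (0.928) followed.

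Other markers of cardiac fibroblasts were lower in part. Of 22, 10 were lower in AngII in the mean of 3 doses and 0 higher, against 7.53% of all tested genes called lower, with a median of -0.50 on the log2 scale, against 0.10 for all tested genes. The median was 0.05 with 1 call on log2(TPM + 1), -0.12 with 1 call when both 50 mg groups were left out, and -0.50 with 2 calls when the share of all other genes was a covariate. The count was 5 without AngII vehicle number 1, AngII 50 mg number 6, sham vehicle number 8 or sham 50 mg number 11, and 6 without sham 5 mg number 10. Medag, named for a part in the forming of fat cells, was at 6.54 ± 2.03 CPM in AngII and 19.6 ± 3.18 CPM in sham libraries (SD, n = 6 each), a log2 fold change of -1.60 ± 0.21 (SE; edgeR adjusted p = 0.00116), though 36.7% of its exon bases are shared with Gm20488. Fstl1, a secreted glycoprotein, changed by -1.21 ± 0.18 (SE; edgeR adjusted p = 0.00157). The microfibril genes Mfap5 and Mfap4 changed by -1.11 ± 0.23 and -1.81 ± 0.38 (SE; edgeR adjusted p = 0.00691 and 0.00745). In sham hearts given 50 mg, 0 of the 22 passed and all 22 were positive against vehicle. Their median was 0.90, against 0.00 for all tested genes. These values rest on the same sham 50 mg libraries as those of the 10 genes, so they are no separate result.

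Of 11 genes of activated fibroblasts, 3 were lower and 0 higher, against 7.53% and 13.4% of all tested genes, with a median of -0.44, which was 0.00 with 0 calls on log2(TPM + 1) and -0.15 with 0 calls when both 50 mg groups were left out. The direction of the list was not the same at each dose: 4 of the 11 were negative in vehicle hearts, with a median of 0.53, and 9 of the 11 at 50 mg, with a median of -1.43. Postn, which encodes the matrix protein periostin, was at 0.953 ± 0.240 CPM in AngII and 4.35 ± 3.42 CPM in sham libraries (SD, n = 6 each), a log2 fold change of -1.93 ± 0.28 (SE; edgeR adjusted p = 0.00150). Meox1, a homeobox transcription factor, changed by -1.12 ± 0.22 (SE; edgeR adjusted p = 0.00534) and Timp1, an inhibitor of matrix metalloproteinases, by -1.69 ± 0.42 (SE; edgeR adjusted p = 0.0148). Thbs4 had a value of -0.87 ± 0.35 (SE; edgeR adjusted p = 0.0926).

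Of 28 proteoglycan genes outside the set, 5 were higher and 1 was lower in AngII, close to the 13.4% and 7.53% of all tested genes, with a median of 0.21, which was -0.16 with 0 calls when the share of all other genes was a covariate. Leaving out number 1 (AngII vehicle) or number 7 (sham vehicle) brought the count of higher genes to 2, any other library to 3 or 4, and both 50 mg groups to 0. The basement membrane heparan sulfate proteoglycans Agrn (agrin) and Hspg2 (perlecan) were at 50.0 ± 20.7 and 105 ± 56.0 CPM in AngII against 13.8 ± 4.67 and 28.7 ± 11.3 CPM in sham libraries (SD, n = 6 each). Their log2 fold changes were 1.85 ± 0.34 and 1.91 ± 0.38 (SE; edgeR adjusted p = 0.00451 and 0.00586). Gpc1, a membrane-anchored glypican, rose by 0.57 ± 0.16 (SE; edgeR adjusted p = 0.0259); 18.9% of its exon bases lie opposite Ankmy1. Acan, the aggrecan gene of cartilage, was near the limit of detection and fell by 3.23 ± 0.85 (SE; edgeR adjusted p = 0.0191).

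Enzymes that build chondroitin and dermatan sulfate chains, which biglycan, decorin and versican carry, were called about as often as all tested genes (13.4% higher and 7.53% lower): 3 of 20 were higher and 1 was lower, with a median of 0.17 (-0.01 with 0 calls when the share of all other genes was a covariate, and 0 calls without both 50 mg groups). B4galt7 and Xylt2, of the linker that joins chain to core protein, rose by 1.73 ± 0.33 and 0.83 ± 0.26 (SE; edgeR adjusted p = 0.00507 and 0.0408). Fam20b, the kinase that phosphorylates xylose in that linker, fell by 0.71 ± 0.19 (SE; edgeR adjusted p = 0.0201). Chpf2 rose by 1.62 ± 0.37 (SE; edgeR adjusted p = 0.0106), but 44.1% of its exon bases lie opposite Smarcd3. Of 10 genes of hyaluronan and versican turnover, with a median of -0.16 (0.23 on log2(TPM + 1)), 1 passed, the gene of the versican-cleaving protease Adamts15, at 1.20 ± 0.38 (SE; edgeR adjusted p = 0.0402). The list had 1 call without AngII 5 mg number 4 or sham 5 mg number 10 and 0 calls in the other 10 fits with 1 library left out. Has3, Hyal1 and Adamts9 did not pass, with values of 1.80, -0.81 and 0.30; 50.8% of the exon bases of Hyal1 are shared with Naa80, which had 4111 counts against 373 for Hyal1.

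The other genes of PDGF signalling, the ligands and the partner receptor of Pdgfra, were 3 of 5 higher and 0 lower, against 13.4% of all tested genes called higher, with a median of 0.72 (0.28 with 0 calls when the share of all other genes was a covariate). The count was 2 or 3 with any 1 library left out and 0 without both 50 mg groups. Pdgfa, whose product binds the Pdgfra receptor, was at 4.86 ± 1.29 CPM in AngII and 2.096 ± 0.734 CPM in sham libraries (SD, n = 6 each), a log2 fold change of 1.25 ± 0.22 (SE; edgeR adjusted p = 0.00307); 26.1% of its exon bases lie opposite 6330403L08Rik. Pdgfb and the receptor gene Pdgfrb, a marker of pericytes, rose by 0.95 ± 0.22 and 0.72 ± 0.23 (SE; edgeR adjusted p = 0.0110 and 0.0427). Pdgfd had a value of 0.62 ± 0.33 (SE; edgeR adjusted p = 0.192).

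**Figure D5:**
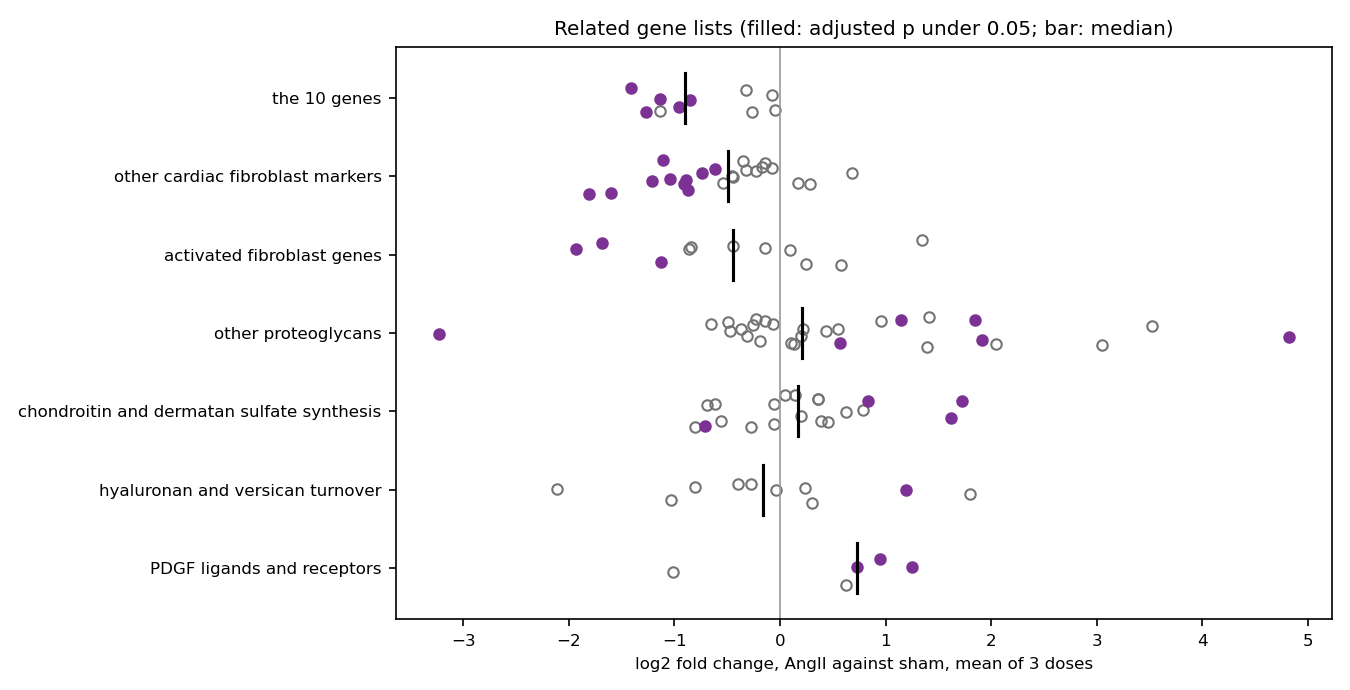
Log2 fold change on TMM-scaled counts, AngII against sham in the mean of 3 doses, of the tested genes of each list; filled points passed an adjusted p of 0.05 and the bar is the median. The bars of the 10 genes (-0.90), other cardiac fibroblast markers (-0.50) and activated fibroblast genes (-0.44) lie below 0, and those of other proteoglycans (0.21) and PDGF genes (0.72) above; the medians of the fibroblast lists turn to 0.05 and 0.00 on log2(TPM + 1) and that of other proteoglycans to -0.16 with the share of all other genes as a covariate.

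Markers of other cell types moved between the same libraries, and their part in the results above was not tested. In the mean of 3 doses 5 of 8 endothelial, 5 of 8 smooth muscle and pericyte, 5 of 5 red cell and 4 of 8 cardiomyocyte markers were higher in AngII, while 3 of 8 macrophage markers and 1 cardiomyocyte marker (Actc1) were lower, against 13.4% of all tested genes higher and 7.53% lower. With 1 library left out the counts were 3 to 8, 3 to 6, 5 and 3 to 4 for the higher markers in that order. For macrophages 0 were lower without AngII vehicle number 1, AngII 50 mg number 6, sham vehicle number 8, sham 5 mg number 9 or sham 50 mg number 11, 1 was lower without AngII 5 mg number 3 or sham 50 mg number 12, and 2 to 5 were lower without any other library. No cardiomyocyte marker was lower with DESeq2 size factors or in 10 of the 12 fits with 1 library left out. With the share of all other genes as a covariate, 1 red cell marker and none of the endothelial, smooth muscle, macrophage or cardiomyocyte markers passed. With both 50 mg groups left out, 1 endothelial marker and none of the smooth muscle, red cell, macrophage or cardiomyocyte markers passed. In vehicle hearts 4 of the 5 red cell markers had negative values, with a median of -0.065. Summed red cell markers were at 1310 to 1741 CPM in sham vehicle, 362 to 761 CPM in sham 5 mg, 290 to 608 CPM in sham 50 mg and 1028 to 3347 CPM in AngII libraries. Lung epithelial markers summed to 1.84 to 11.4 CPM in AngII and 0.0559 to 2.36 CPM in sham libraries. That sum rested on Scgb1a1 and Scgb3a1, with means of 3.93 and 1.21 CPM in AngII against 0.685 and 0.146 CPM in sham. Their log2 fold changes were 4.98 ± 0.58 and 4.69 ± 0.57 (SE; edgeR adjusted p = 0.000901 and 0.00104). Both also passed with the share of all other genes as a covariate, and 1 of the 2 passed with both 50 mg groups left out. Sftpc, Sftpb and Sftpa1 averaged 0.0053, 0.010 and 0.016 CPM in AngII and had too few counts to be tested. Adipoq of fat cells and Myh4 of skeletal muscle had no count in any library.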

How the data were processed

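Whole-heart RNA was sequenced as 12 paired-end libraries (TruSeq RNA kit, NovaSeq, per the labels' protocols). The submitters' processing notes name HISAT2 (2.2.1), StringTie (2.1.3) and the build GRCm38.p6. Which program counted the reads, with which annotation and strand setting, is not given in the sources. One deposited table gives the authors' raw counts for 27504 genes, without normalisation. The deposited per-sample files hold TPM for 14271 genes, per the file headers, which are scaled by the authors to transcript length and library. Groups and library numbers were taken from the sample titles.

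The fit used edgeR 4.0.16 in R 4.3.3: filterByExpr by group (16723 genes), TMM scaling, 1 mean per group over all 12 libraries (6 residual degrees of freedom), and 2-sided quasi-likelihood F-tests for 10 contrasts, adjusted by Benjamini-Hochberg over all tested genes, with a threshold of 0.05. Each SE is the absolute log2 fold change over the square root of F. Fitted fold changes of Fmod rest on few counts and depend on the prior count. The pipeline was run on simulated counts with known fold changes between the arms. Those counts held no shift between libraries in the share of all other genes, so the run cannot show how such shifts affect the calls. Positions and exon overlaps come from GENCODE M21 on GRCm38; without a known strand setting, overlapping genes cannot be told apart. Promoters come from a RefSeq table (GRCm38.p6), which held 7 of the 10 genes, and motifs were searched in the 250 bases before the start and not in the 50 after it, as first planned.

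The 10 genes, the gene lists and the rule for named genes were chosen with earlier results of these data known. The rule names the 10 genes, up to 4 genes with the smallest p from each of 6 related lists, and the 8 genes most correlated with the mean profile. Actc1 and other genes outside the rule (Mmp2, Ddr2 and Dpt) were named after their values were seen.

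Alternatives were DESeq2 1.42.0 size factors, the DESeq2 Wald test, limma-voom (limma 3.58.1), no filter, at least 1 CPM in 6 libraries, mitochondrial and haemoglobin genes left out, the share of non-mitochondrial counts as a covariate, only the 2 groups compared, limma-trend on log2(TPM + 1) with a pseudocount of 1, libraries 4 and 12 left out together, and each library left out in turn. Added after seeing the data were the share of all other genes as a covariate, mitochondrial, mitochondrial-like and ribosomal RNA genes left out, and both 50 mg groups left out.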

Additional observations from a re-analysis of the deposited data

Results flagged for a closer look

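Fmod stood apart in 1 sham library. Sham 50 mg number 12 held 0.503 CPM of Fmod, the next highest sham library held 0.109 CPM and the lowest held 0. The gap between the highest and the next was 0.783 of the whole range of the 6 sham libraries, past the 95% limit of Dixon's test for 6 samples, which chance passes in about 1 of 20 groups; 20 such groups (10 genes in 2 arms) were looked at. The same library is the one with 10.8% ribosomal RNA counts.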

How the results depend on the processing

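No paired analysis was possible because the groups share no replicate numbers. In the mean of 3 doses, 9 of 12 alternatives other than leaving out 1 library, and all 12 fits with 1 library left out, kept the count of called genes within 1.5 times of 5 (4 to 5 with 1 library left out); the exceptions were 0 on log2(TPM + 1), 1 with the share of all other genes as a covariate and 0 with both 50 mg groups left out, where 123 genes were called higher and 9 lower and the lower number of libraries adds to the uncertainty. With both 50 mg groups out, Bgn was at -0.98 (edgeR adjusted p = 0.0810) and Pdgfra at 0.44 and Vcan at 0.24 turned positive; with 1 library left out, 9.74 to 28.3% of all genes were called. Fmod ranged from -2.14 to 1.66 and Pdgfra from -0.23 to 0.29 with 1 library left out, Fmod was at 0.32 with the share of all other genes as a covariate, and on log2(TPM + 1) Ogn was at 0.25, Pdgfra at 0.26 and Vcan at 0.042. For AngII against sham in vehicle, DESeq2 called 1. At 5 mg the count was 1 with libraries 4 and 12 left out together and 0 to 3 with 1 library left out. At 50 mg it was 0 to 5 with 1 library left out, 0 on log2(TPM + 1) and 1 with the share of all other genes as a covariate. For gastrodin 50 mg in sham it was 1 with no filter and 1 with DESeq2. The gastrodin contrasts in AngII, 5 mg in sham and both interactions gave 0 in every fit run. The cause of these shifts was not tested, and the counts for single contrasts are not set here against calls over all genes in the same fits. Depth limits Fmod and Pdgfrl most. A fit that leaves 1 library in a group assumes that it varies like the others.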
